A study of Mus musculus with 8 samples.

Results

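The cytochrome P450 genes of the mouse were examined in tumor and in small intestine of Apc mutant mice. Members were all genes whose symbol is Cyp followed by a family number, a subfamily letter and a gene number, apart from Cyp51 and the genes marked as pseudogenes. This rule, which uses names and no measured value, found 99 of the 43629 genes in the count table and left out 15 pseudogenes. Of the 99 members, 98 are annotated as protein-coding, and the other, Cyp4x1os, is an antisense RNA that carries a P450 name and had no count in any library. Polyadenylated RNA was sequenced from 4 tumor libraries and 4 small intestine libraries. All 8 carry the same labels otherwise: genotype APC mutant, strain C57B6/129 and no treatment, so the small intestine samples come from mutant mice too and are not wild type. The labels used here give neither the Apc allele, age or sex nor the segment of intestine or the size of the tumors, and do not say whether samples were pooled. Nothing in them ties each library to its own animal, so the p-values measure only how far these samples spread, which may be technical.

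Cytochrome P450 enzymes are membrane-bound monooxygenases that hold a heme iron on a cysteine and use electrons from P450 oxidoreductase, or from adrenodoxin in mitochondria, to insert an oxygen atom into their substrates. Families 1 to 3 act mainly on drugs, plant compounds and other foreign molecules, family 4 on fatty acids and leukotrienes, and the remaining families mainly on sterols, bile acids, steroid hormones, vitamin D and retinoic acid. In the intestine they are known mainly from the absorptive enterocyte, the first cell that ingested compounds pass through.

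The stretch of coding sequence around the heme-binding cysteine is the family's signature, and it shows both what the members share and how closely some neighbours resemble each other. It was read from GENCODE transcripts on GRCm38 as 30 bases that translate from a phenylalanine to a glycine around the cysteine. This pattern was found in 90 of the 98 protein-coding members, of which 57 use the cysteine codon TGC and 33 use TGT. The sequences shown run 5′ to 3′, with that codon in capitals, and are those of members that the results turn on.
Cyp3a11: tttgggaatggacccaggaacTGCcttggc
Cyp3a13: tttgggagtggaccaaggaacTGCattggc
Cyp3a25: tttggaaatggacccaggaacTGCataggc
Cyp3a44: tttggaattggacccaggaacTGCattggc
Cyp2c55: ttctcaataggaaagcgaatgTGCgtggga
Cyp2c65: ttctcaacaggaaaacggattTGTgtggga
Cyp2c66: ttctcaacaggaaaacggattTGTgtggga
Cyp4f14: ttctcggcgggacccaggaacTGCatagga
Cyp4f17: ttttctgctgggcctaggaacTGCatagga
Cyp1b1: ttctcagtgggcaaacggaggTGCatcggt
Cyp26a1: tttggaggaggccttcggagcTGTgtaggc
Cyp2c65 and Cyp2c66 were identical over this stretch. Reads may be shared between such neighbours, though only transcript sequences were compared. The main transcript of Cyp2c65, that with the longest coding sequence, had 20.6% of its runs of 50 bases in another gene, against 0% for Cyp3a13 and 2.72% for Cyp4f14. Over the 47 members tested, 17 shared no such run with another gene and 17 shared over 10%.

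Totals ran from 53856561 to 67371180 counts in tumor and from 62347648 to 84433335 counts in small intestine. Of 12 enterocyte markers, 12 were lower in tumor, and their summed level ran from 815 to 1246 CPM in tumor against 56436 to 68109 CPM in small intestine. All 7 Wnt target genes of the tumor list, all 7 fibroblast genes and all 5 endothelial genes were higher in tumor. The part of these cell markers in the P450 differences was not tested, and in bulk samples fewer cells of a type and less RNA per cell cannot be told apart. CPM values here are counts relative to the tested genes' total, scaled by TMM factors, and FPKM are the authors' deposited values per length of transcript.

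The P450 pool was far smaller in tumor. Summed over all members, levels were 169, 176, 173 and 159 FPKM in the 4 tumor libraries, against 2011, 1693, 2043 and 2309.9 FPKM in the 4 small intestine libraries. The groups did not overlap, and the mean was 11.9-fold higher in small intestine in the deposited FPKM. In TMM-scaled CPM it was 21-fold higher. These ratios differ in scaling as well as in the use of length. The make-up differed as well. Per length, Cyp27a1 led in tumor with 16.5% of the pool, followed by Cyp4f16 with 10.9%, Cyp2j6 with 10.7%, Cyp20a1 with 8.78% and Cyp1b1 with 8.57%. In small intestine Cyp4f14 alone held 32.2%, followed by Cyp3a13 with 13.6%, Cyp3a11 with 7.64%, Cyp4v3 with 6.77% and Cyp3a25 with 6.34%. None of the first 5 in one tissue was among the first 5 in the other. A mean of at least 10 FPKM was reached by 7 members in tumor and 18 in small intestine, while at least 1 FPKM was reached by 21 in tumor and 24 in small intestine.

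**Figure D1:**
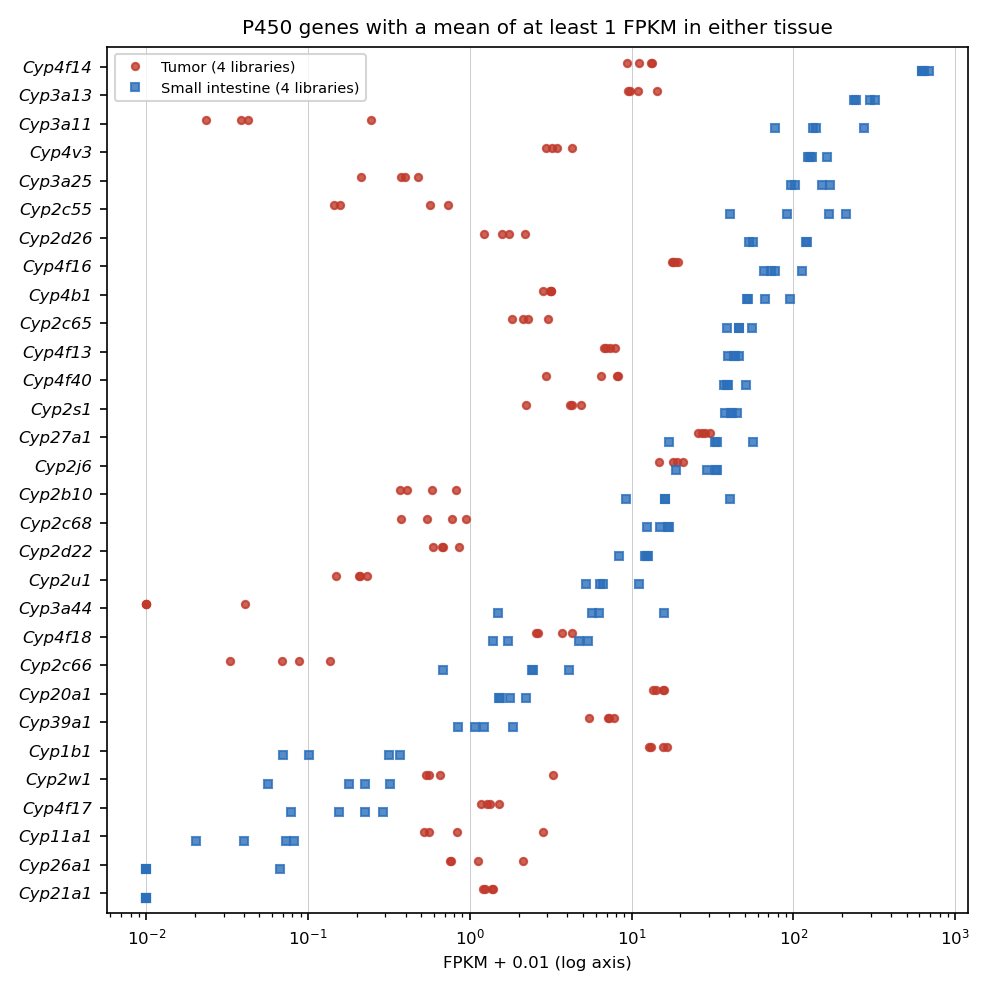
FPKM per library, with 0.01 added for the log axis, of the P450 genes with a mean of at least 1 FPKM in either tissue, ordered by their mean in small intestine; red circles are the 4 tumor libraries and blue squares the 4 small intestine libraries. Cyp4f14 leads in small intestine with a mean of 643 FPKM against 11.7 FPKM in tumor, and the members at the bottom, such as Cyp1b1 and Cyp21a1, lie the other way.

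Of the 99 members, 16 had no count in any library, 36 were counted in at least 1 library but too low to test, and 47 passed the low-count filter, which asks for about 10 counts in at least 4 libraries. With edgeR (quasi-likelihood test, p-values adjusted by Benjamini-Hochberg over all 17029 genes tested), 29 of the 47 were lower in tumor, 11 were higher and 7 were not called at an adjusted p of 0.05. Calls were common in the whole table: 74.3% of all genes tested were called, 35.4% lower and 38.9% higher. The median log2 fold change, tumor over small intestine, was -3.20 over the 47 members and 0.07 over all genes tested. A log2 fold change of -4 or below was found in 19 of the 47 members against 3.66% of all genes tested, and one of 4 or above in 4 members against 6.53%. Of the 47, 37 passed the filter through libraries of both tissues. A further 5 passed through tumor libraries alone and 5 through small intestine libraries alone, and these last 10 had to differ. The 5 of tumor alone were Cyp21a1, Cyp26a1, Cyp11a1, Cyp27b1 and Cyp4a29. All 5 were called higher, and their p-values give no support, since they had to differ. Cyp21a1, Cyp26a1 and Cyp11a1 are also among the 4 members at 4 or above. The groups did not overlap for 40 of the 47, against 70.5% of all genes tested. Scaling by library totals in place of TMM shifts the median of all genes by 0.863 on the log2 scale towards tumor. It gave 28 lower and 12 higher members, where 79.6% of all genes were called, 17.6% lower and 62.0% higher. With limma on log2(FPKM + 1), 25 members reached a mean of 1 FPKM, and 20 were lower and 3 higher, where 82.7% of all genes were called, 18.1% lower and 64.6% higher.

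**Figure D2:**
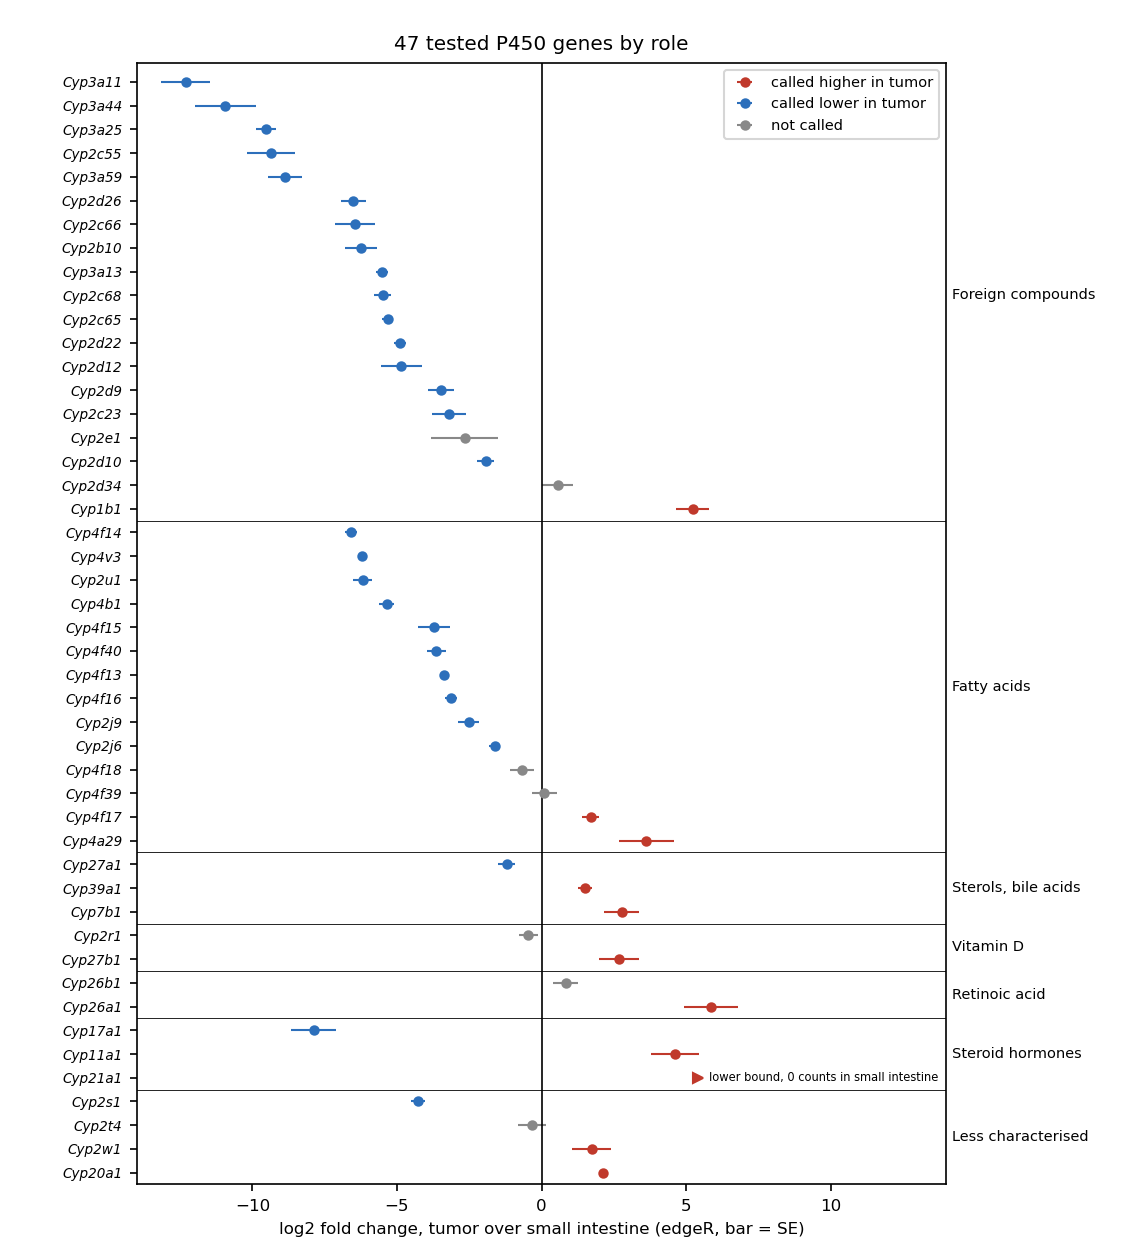
Log2 fold change with its SE, tumor over small intestine, of the 47 tested P450 genes grouped by role; red, blue and grey mark genes called higher, called lower and not called. Genes of foreign compounds and fatty acids lie mostly left of 0, down to -12.31 for Cyp3a11, and Cyp21a1 is drawn at its lower bound, a fold of 42.4 on a log2 scale, because it had 0 counts in small intestine.

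Among the genes of foreign-compound metabolism, 47 members in all, 19 were tested, and 16 of these were lower in tumor, 1 was higher and 2 were not called. Their median log2 fold change was -5.50. Of all genes tested, 35.4% were lower and 38.9% higher. The Cyp3a genes, which oxidise a large share of drugs and are induced through the pregnane X receptor, were lower in tumor: 5 of 9 were tested and all 5 fell. Their median on the log2 scale was -9.53. Summed over the subfamily, levels were 11.6, 15.1, 10.02 and 9.95 FPKM in tumor, against 526, 423, 698 and 619.6 FPKM in small intestine.

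Cyp3a11 (chr5:145854426-145879964, minus strand, GRCm38), the mouse gene most often set beside the human drug-metabolising CYP3A4, had 0.0221, 0.334, 0.0279 and 0.0226 CPM in the 4 tumor libraries, against 436, 260.2, 904 and 471 CPM in the 4 small intestine libraries. Tumor 2 stood above the other tumor libraries, small intestine 3 was the highest of its group, and the groups lay far apart. The log2 fold change was -12.31 ± 0.84 (SE; edgeR adjusted p = 1.36e-06), and -14.27 without tumor 2, where few counts remain in tumor. Cyp3a13 (chr5:137892932-137921619, minus strand), which lies apart from the main Cyp3a cluster, was the most abundant of the subfamily per length, at 11.1 ± 2.23 FPKM in tumor, against 274 ± 41.1 FPKM in small intestine (SD, n = 4 each). Its CPM were 25.6, 34, 23.7 and 21.4 in tumor, against 1018, 1073, 1388 and 1353 in small intestine, with no overlap. It fell by 5.53 on the log2 scale with an SE of 0.21 (edgeR adjusted p = 6.84e-08). Cyp3a25, another member of the drug-oxidising subfamily, had 0.519, 0.631, 0.265 and 0.564 CPM in tumor, against 418, 277, 289 and 499 CPM in small intestine. Every small intestine library was above every tumor library, with a log2 fold change of -9.53 ± 0.35 (SE; edgeR adjusted p = 5.79e-08). Its main transcript shares 25% of its runs of 50 bases with Cyp3a59, so reads of this pair may be split between them. Cyp3a59 itself had 1 count in the 4 tumor libraries and 502 in the 4 small intestine libraries, a scaled ratio of small intestine over tumor of 758 (exact 95% interval 135 to 29988). For Cyp3a44 there were 3 counts in tumor and 4861 in small intestine, a ratio of 2446 (exact 95% interval 836 to 11864), and without tumor 1, which held 2 of the 3 tumor counts, it was 5332 (exact 95% interval 957 to 210658). Such intervals cover counting error only. Of the other Cyp3a members, Cyp3a16, Cyp3a41a, Cyp3a41b and Cyp3a57 were not tested, and the most abundant of them, Cyp3a57, had 1 count in tumor against 71 in small intestine.

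The Cyp2c genes, whose intestinal members epoxidise and hydroxylate arachidonic acid, showed the same direction. Of 15 members, 5 were tested and all 5 fell, while 3 had no count at all. Summed levels were 4.25, 4.13, 2.59 and 3.12 FPKM in tumor, against 231, 144, 104 and 289 FPKM in small intestine. Cyp2c55, which makes a hydroxylated arachidonic acid, had 0.166, 1.08, 0.196 and 0.733 CPM in tumor, against 452, 258, 111 and 612 CPM in small intestine. Small intestine 3 held the lowest level of its group, still above all tumor libraries, and the log2 fold change was -9.36 ± 0.84 (SE; edgeR adjusted p = 7.38e-06). Cyp2c65 was more even, with 4.33, 3.32, 2.67 and 2.88 CPM in tumor, against 128, 111, 128 and 163 CPM in small intestine and a log2 fold change of -5.33 ± 0.20 (SE; edgeR adjusted p = 6.27e-08). Its near copy Cyp2c66, identical in the cysteine loop, had a log2 fold change of -6.44. Cyp2c68 averaged 0.862 ± 0.323 CPM in tumor, against 39.1 ± 5.65 CPM in small intestine (SD, n = 4 each), and is the least certain of these, since 43.3% of its runs of 50 bases occur in another gene, mostly Cyp2c40.

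Of the 8 Cyp2d genes, relatives of the human drug oxidase CYP2D6, 6 were tested, 5 fell and Cyp2d34 was not called. Cyp2d26 had 3.34, 2.71, 2.54 and 1.75 CPM in tumor, against 309.9, 136, 144 and 351 CPM in small intestine, where libraries 1 and 4 were above libraries 2 and 3. It did not overlap between tissues and had a log2 fold change of -6.51 ± 0.42 (SE; edgeR adjusted p = 1.00e-06). Cyp2d22 averaged 1.81 ± 0.274 CPM in tumor, against 53.8 ± 11.9 CPM in small intestine (SD, n = 4 each), with a log2 fold change of -4.89. Cyp2b10, the classic target of the constitutive androstane receptor, was the only tested gene of 5 in the Cyp2b subfamily. It had 0.508, 1.28, 0.922 and 0.564 CPM in tumor, against 48.1, 27.5, 121 and 53 CPM in small intestine, with the highest level in small intestine 3. All tumor libraries were below all small intestine libraries, and the log2 fold change was -6.26 ± 0.55 (SE; edgeR adjusted p = 6.69e-06).

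Of the 3 family 1 genes, targets of the aryl hydrocarbon receptor, 1 was tested. Cyp1b1 (chr17:79701537-79715061, minus strand), which oxidises polycyclic hydrocarbons and oestradiol mainly outside the liver, was the 1 gene of this role that was higher in tumor. It had 58.9, 62.1, 48.4 and 47.5 CPM in tumor, against 2.6, 2.18, 0.315 and 0.621 CPM in small intestine. Every tumor library was above every small intestine library, and within small intestine libraries 1 and 2 were above 3 and 4. The log2 fold change was 5.23 ± 0.57 (SE; edgeR adjusted p = 2.70e-05). The 7 genes of the fibroblast list were all called higher, summing to 1923, 1438, 1615 and 1211 CPM in tumor, against 70.2, 54.5, 25.8 and 33.6 CPM in small intestine. In this sum small intestine libraries 1 and 2 were again above 3 and 4, though Pdgfrb of the list was highest in small intestine 4, at 15.4 CPM. The 5 endothelial genes, all called higher too, had the same split: they summed to 174, 172, 139 and 181 CPM in tumor, against 21.3, 20.1, 7.29 and 6.85 CPM in small intestine. The part of fibroblast or endothelial RNA in the Cyp1b1 difference was not tested. Cyp1a1, which the same receptor induces, was too low to test, with 1 count in tumor against 145 in small intestine, a ratio of small intestine over tumor of 219 (exact 95% interval 38.7 to 8704). Its level in small intestine was 1.11, 0.99, 0.042 and 0.397 CPM, so libraries 1 and 2 held most of these reads.

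Cyp2e1, which oxidises ethanol and acetone, was not called (log2 fold change -2.66 ± 1.15, SE; edgeR adjusted p = 0.0607) and overlapped between groups. Its levels were 0.254, 0.248, 0.475 and 0.237 CPM in tumor, against 5.23, 2.07, 0 and 0.328 CPM in small intestine, highest in libraries 1 and 2. The 5 adipocyte genes, none of which was high enough to test, summed to 0 to 0.0419 CPM in tumor, and to 16.5, 6.99, 0.021 and 0.345 CPM in small intestine. Their defining genes Adipoq and Cfd were at 0 in all 4 tumor libraries, and the part of fat-cell RNA in the Cyp2e1 values was not tested.

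Among the 28 fatty acid genes, 14 were tested, of which 10 fell, 2 were higher and 2 were not called. Their median log2 fold change was -3.26, and 35.4% of all genes tested were lower and 38.9% higher. Cyp4f14 (chr17:32905070-32917342, minus strand), which hydroxylates the end of leukotriene and vitamin side chains, was the most abundant P450 gene of small intestine per length, at 11.7 ± 1.91 FPKM in tumor, against 643 ± 31.5 FPKM in small intestine (SD, n = 4 each). It had 23.1, 28.3, 27.6 and 18.9 CPM in tumor, against 2233, 2267, 2224 and 2758 CPM in small intestine. The groups were far apart, and small intestine 4 stood above the other 3. The log2 fold change was -6.60 ± 0.21 (SE; edgeR adjusted p = 2.97e-08). Its neighbours on chromosome 17 fell less: Cyp4f40 by 3.63, Cyp4f13 by 3.38 and Cyp4f16 by 3.14 on the log2 scale. Cyp4f16 remained the second P450 gene of tumor per length, with 30.2, 33.6, 32.4 and 33.3 CPM in tumor, against 244, 223, 256 and 419 CPM in small intestine. Its groups did not overlap (log2 fold change -3.14 ± 0.20, SE; edgeR adjusted p = 1.03e-06), though 24.8% of its runs of 50 bases also occur in Cyp4f37.

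Cyp4f17, in the same cluster between Cyp4f39 and Cyp4f16, was higher in tumor. It had 2.41, 2.34, 2.29 and 3.16 CPM in tumor, against 0.972, 0.478, 0.63 and 1.05 CPM in small intestine. Tumor 4 was the highest, the groups did not overlap, and the log2 fold change was 1.70 ± 0.30 (SE; edgeR adjusted p = 6.80e-04). Cyp4f18, the leukotriene hydroxylase of neutrophils, and Cyp4f39 were not called. Outside the cluster, Cyp4v3, the counterpart of the human fatty acid hydroxylase CYP4V2, had 9.65, 9.53, 8.9 and 12 CPM in tumor, against 695, 674, 868 and 712 CPM in small intestine, with no overlap. Its log2 fold change was -6.20 ± 0.16 (SE; edgeR adjusted p = 1.78e-08). Cyp4b1, which activates some plant and fungal toxins, averaged 4.84 ± 0.202 CPM in tumor, against 199 ± 70.1 CPM in small intestine, and Cyp2u1, a hydroxylase of long fatty acids, averaged 0.325 ± 0.080 CPM in tumor, against 23.8 ± 8.64 CPM in small intestine (SD, n = 4 each). Cyp4b1 fell by 5.36 and Cyp2u1 fell by 6.18 on the log2 scale. Cyp2j6, an intestinal epoxygenase of arachidonic acid, changed least of the abundant members of this role, with 49.8, 54.7, 59.8 and 40.2 CPM in tumor, against 179, 104, 157 and 190.3 CPM in small intestine. The groups did not overlap in CPM but did in FPKM, and the log2 fold change was -1.62 ± 0.20 (SE; edgeR adjusted p = 5.92e-05). Of the 8 Cyp4a genes, which hydroxylate fatty acids under PPAR alpha, only Cyp4a29 was tested. It had 1.19, 0.421, 0.335 and 0.203 CPM in tumor, against 0, 0.0531, 0.126 and 0 CPM in small intestine, highest in tumor 1 and without overlap. Passing the filter through tumor libraries alone, it was called higher at a log2 fold change of 3.62 ± 0.95 (SE; edgeR adjusted p = 0.00664). The log2 fold change was 2.89 without tumor 1. Without small intestine 3, 3 counts remain in small intestine, and the ratio of tumor over small intestine was 31.8 (exact 95% interval 10.7 to 156). Cyp4a10, which was not tested, went the other way, with 2 counts in tumor against 192 in small intestine. Its ratio of small intestine over tumor was 145 (exact 95% interval 39.6 to 1205). Summed over the Cyp4a subfamily, levels overlapped between the groups in CPM and in FPKM.

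Of the 6 members of sterol and bile acid metabolism, 3 were tested, 2 were higher in tumor and 1 was lower. Over all genes tested 38.9% were higher and 35.4% lower, so these counts say nothing particular about the role. Cyp39a1 and Cyp7b1, which both hydroxylate oxysterols on the way to bile acids, were the 2 higher ones. Cyp39a1 had 17, 17.2, 19.1 and 12.6 CPM in tumor, against 3.87, 5.68, 8.46 and 5.14 CPM in small intestine. These groups did not overlap, and the log2 fold change was 1.51 ± 0.24 (SE; edgeR adjusted p = 3.65e-04). Cyp7b1 was lower in level, with 1.53, 1.41, 1.38 and 1.02 CPM in tumor, against 0.313, 0.336, 0.105 and 0.0173 CPM in small intestine, again without overlap (log2 fold change 2.77 ± 0.61, SE; edgeR adjusted p = 0.00246). Cyp27a1, the mitochondrial enzyme that hydroxylates the sterol side chain, had 36, 40.9, 41.6 and 37.1 CPM in tumor, against 87.8, 43.6, 79.4 and 149 CPM in small intestine. Tumor libraries were close together, small intestine libraries were spread, and tumor 3 lay just below small intestine 2. It was called lower at -1.21 ± 0.30 (log2 fold change, SE; edgeR adjusted p = 0.00519), but not with library totals, where edgeR gave -0.33 and an adjusted p of 0.311. Cyp7a1, which starts bile acid synthesis in liver, had no count in any library.

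The genes grouped here under vitamin D, retinoic acid and steroid hormones were all low, at most 5.81 CPM in any library. Each subfamily was given 1 role, so Cyp27a1 and Cyp1b1, at higher levels, are counted under other roles. Cyp26a1, which degrades retinoic acid and is a classic retinoic acid target, had 1.05, 1.6, 1.06 and 3.0 CPM in tumor, against 0.104, 0, 0 and 0 CPM in small intestine. Tumor 4 was the highest and the groups did not overlap. Passing the filter through tumor libraries alone, the gene had a log2 fold change of 5.86 ± 0.92 (SE; edgeR adjusted p = 2.99e-04). Small intestine 1 holds all 6 small intestine counts of this gene. Without that library the gene was at least 29.98-fold higher in tumor, against a floor of 3 counts per small intestine library. Cyp26b1, of the same pathway, was not called at 0.84 ± 0.43 (log2 fold change, SE; edgeR adjusted p = 0.107), although its groups did not overlap at 2.5, 2.48, 2.46 and 2.01 CPM in tumor, against 1.84, 1.8, 0.357 and 1.28 CPM in small intestine, and it was called with library totals (log2 fold change 1.70, edgeR adjusted p = 0.00607). Cyp27b1, which completes active vitamin D, had 0.243, 0.173, 0.279 and 0.271 CPM in tumor, against 0.0174, 0, 0.021 and 0.104 CPM in small intestine. Passing the filter through tumor libraries alone, it was called higher at a log2 fold change of 2.68 ± 0.68 (SE; edgeR adjusted p = 0.00557). It stayed under 0.3 CPM in each library. Small intestine 4 held 6 of its 8 small intestine counts, and without that library the ratio of tumor over small intestine was 19.5 (exact 95% interval 5.23 to 164). Cyp24a1, which degrades vitamin D, was too low to test, and Cyp2r1, a vitamin D activating hydroxylase, was not called at -0.46 ± 0.33 (log2 fold change, SE; edgeR adjusted p = 0.227), though it was without small intestine 3 (log2 fold change -0.68, edgeR adjusted p = 0.0407).

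Of the steroid hormone genes, 3 of 6 were tested. Cyp21a1 (chr17:34801348-34804561, minus strand), the adrenal hydroxylase needed for corticosterone and aldosterone, had 2.22, 2.41, 2.24 and 2.45 CPM in tumor and 0 counts in all 4 small intestine libraries. With 773 counts in tumor, it was at least 42.4-fold higher there, against a floor of 3 counts per small intestine library. It passed the filter through tumor libraries alone, so its p-value (edgeR adjusted p = 4.99e-06) is no support for a difference. The gene overlaps the pseudogene Tnxa on the opposite strand and shares 23.7% of its runs of 50 bases with the pseudogene Cyp21a2-ps. In tumor Tnxa averaged 0.00276 CPM and Cyp21a2-ps 0.00901 CPM. The part of their reads in the Cyp21a1 counts was not tested. Cyp11a1, which cuts the cholesterol side chain in the first step of steroid synthesis, had 1.1, 1.7, 5.81 and 0.744 CPM in tumor, against 0.0868, 0.0177, 0.168 and 0.104 CPM in small intestine. Tumor 3 was well above the other tumor libraries, and the groups did not overlap. Cyp11a1 passed the filter through tumor libraries alone. Its log2 fold change was 4.63 ± 0.83 (SE; edgeR adjusted p = 6.78e-04) and 3.69 without tumor 3. A list of 6 mast cell genes, chosen after these values were seen, was also highest in tumor 3: it summed to 46.4, 315, 1879 and 69.1 CPM in tumor, against 2.88, 5.94, 6.87 and 3.4 CPM in small intestine, and 6 of 6 were called higher. The part of mast cell RNA in the Cyp11a1 values was not tested. Cyp11a1 also overlaps the RNA gene Gm17322 on the same strand, so reads of the pair cannot be told apart with certainty. Gm17322 had 12.6, 11.1, 11.6 and 9.15 CPM in tumor, without a peak in tumor 3, against 0.538, 0.478, 0.315 and 0.362 CPM in small intestine. Cyp17a1, the next enzyme of the pathway, went the other way, with 1 count in tumor and 254 in small intestine, a ratio of small intestine over tumor of 383 (exact 95% interval 68.2 to 15203). Of 5 marker genes of steroid-making cells, 2, Hsd3b1 and Lhcgr, had no count in any library, and the 5 summed to 1.3 to 1.62 CPM in tumor and 2.16 to 3.65 CPM in small intestine.

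Among the 6 less characterised members, 4 were tested. Cyp20a1, an orphan P450 with no settled substrate, had 24.5, 21.6, 23.2 and 24.2 CPM in tumor, against 4.6, 5.57, 6.55 and 4.61 CPM in small intestine. These groups did not overlap, and the log2 fold change was 2.13 ± 0.15 (SE; edgeR adjusted p = 1.39e-06). Cyp2s1, a P450 of surface epithelia, had 10.8, 9.97, 12.3 and 5.43 CPM in tumor, against 181, 180.1, 198 and 187 CPM in small intestine, with the lowest level in tumor 4. It fell by 4.28 with an SE of 0.24 on the log2 scale (edgeR adjusted p = 4.43e-07). Cyp2w1, known from human colorectal tumors, had 1.0, 1.25, 0.894 and 5.7 CPM in tumor, against 1.02, 0.265, 0.756 and 0.604 CPM in small intestine. Tumor 4 stood alone, and of the other 3 tumor libraries, 2 were below small intestine 1. The call at a log2 fold change of 1.74 ± 0.68 (SE; edgeR adjusted p = 0.0422) rested on that library, since without tumor 4 the value was 0.70 (edgeR adjusted p = 0.184). It was also lost when small intestine 2, 3 or 4 was left out, at edgeR adjusted p-values of 0.0940, 0.0740 and 0.0847.

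**Figure D3:**
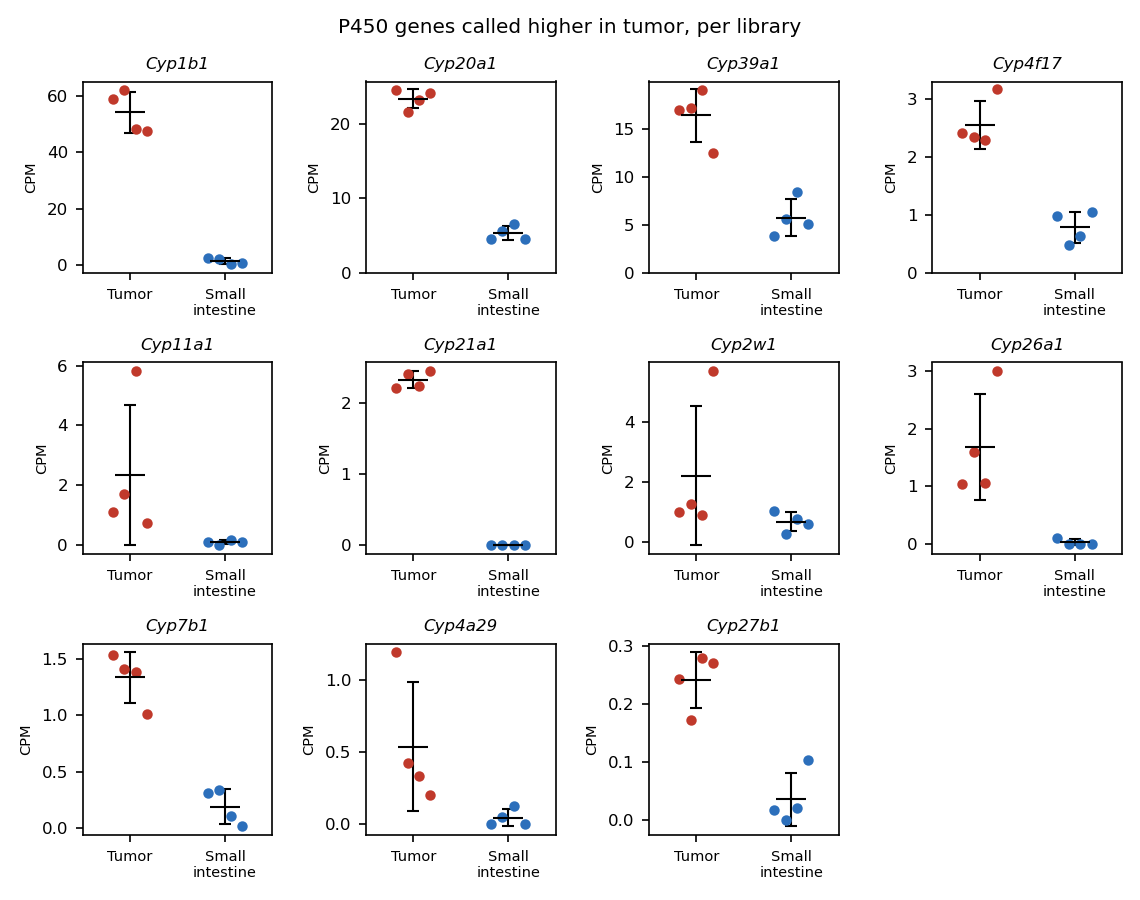
CPM per library of the 11 P450 genes called higher in tumor, each panel on its own linear axis, with tumor on the left and small intestine on the right; points are libraries and bars the mean with its SD. Cyp1b1, Cyp20a1 and Cyp39a1 exceed 10 CPM in each tumor library, while Cyp11a1 and Cyp2w1 each have 1 tumor library far above the rest.

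The members that fell also varied between the small intestine libraries, and not all in one way. Small intestine 2 held the lowest level of the group for 20 of the 29 lower members and small intestine 4 the highest for 17. Over the 20 lower members named for their level, the highest library exceeded the lowest by between 1.1-fold for Cyp2s1 and 11.4-fold for Cyp3a44. Cyp3a44 and Cyp2c55, with a 5.5-fold range, were lowest in small intestine 3 and highest in small intestine 4. Cyp2b10 and Cyp3a11, with ranges of 4.4-fold and 3.47-fold, were highest in small intestine 3 instead. Markers of intestinal segment differed between the same libraries, with no single order among the proximal ones. Of 7 proximal genes, Gata4, Lct and Cck were highest in small intestine 3, whereas Slc40a1, Cybrd1 and Onecut2 were lowest there and Fabp1 was highest in small intestine 4. Of 6 distal genes, 5 were lowest in small intestine 3, the exception being Slc51b, and 5 were highest in small intestine 4, the exception being Fabp6. Lct, the milk sugar enzyme, had 92, 56.7, 332 and 80.2 CPM over the 4 libraries, and the distal bile acid transporter Slc10a2 had 587, 543, 183 and 844 CPM. The 7 proximal genes summed to 196, 190.4, 580.0 and 311 CPM over the 4 libraries, and the 6 distal genes to 10609.6, 13258, 8665 and 15287 CPM. The part of intestinal segment in these ranges was not tested. No named member other than Cyp2w1 lost its call when any 1 small intestine library was left out.

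**Figure D4:**
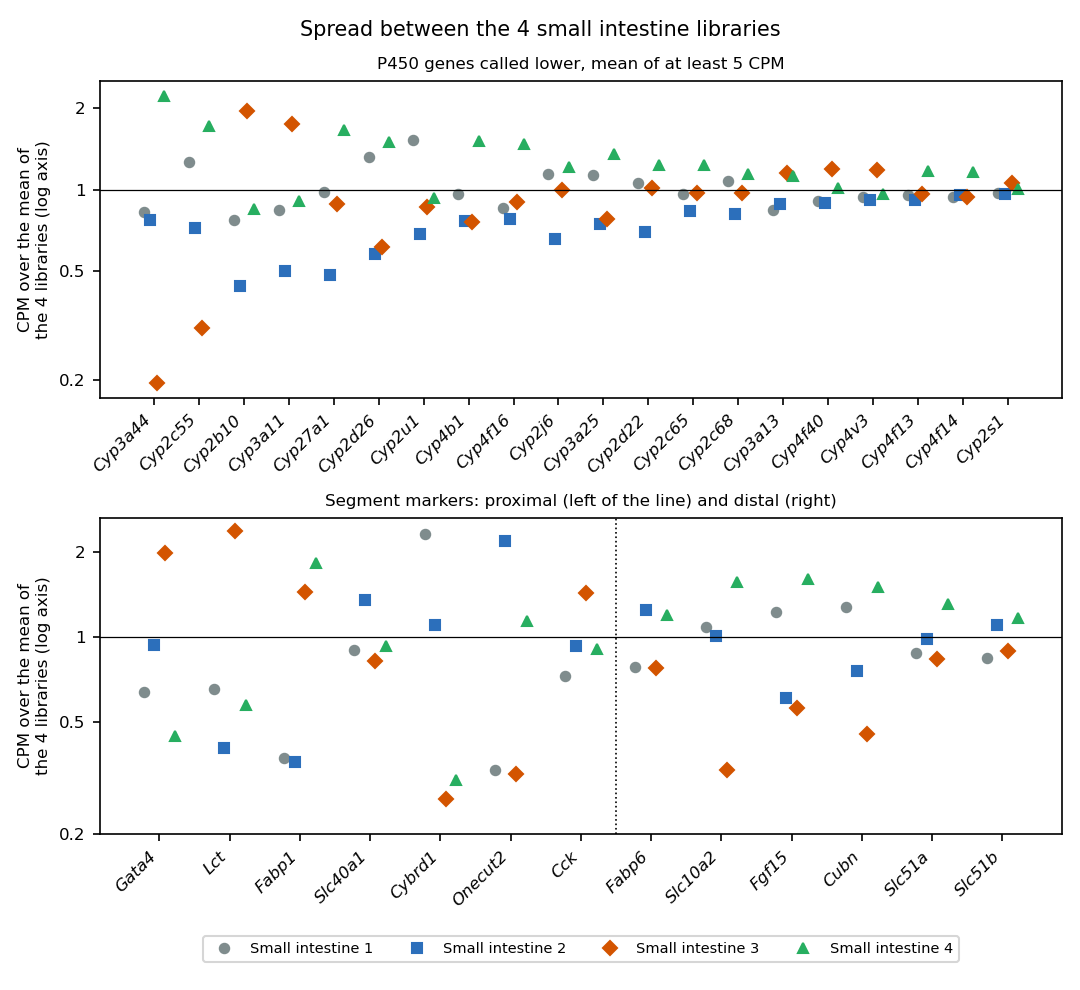
CPM in each of the 4 small intestine libraries over the mean of the 4, on a log axis, for the 20 lower P450 genes named for their level, ordered by range (top), and for all 7 proximal and 6 distal segment markers (bottom). Ranges run from 11.4-fold for Cyp3a44 to 1.1-fold for Cyp2s1, and in small intestine 3 the proximal markers lie on both sides of 1 while 5 of the 6 distal markers are at their lowest.

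Genes that serve or control P450 enzymes were read from the same test. Of all genes tested, 35.4% were lower and 38.9% higher with TMM, against 17.6% and 62.0% with library totals. Of 8 redox partners, all tested, 7 were lower and none was higher in tumor, with a median of -1.08, whereas with library totals 3 were lower and 1 was higher. Por, the oxidoreductase that supplies electrons to every microsomal P450, had 161, 191, 146 and 135 CPM in tumor, against 299, 225, 279.7 and 479.9 CPM in small intestine. It was called at a log2 fold change of -1.02 ± 0.23 (SE; edgeR adjusted p = 0.00254), a far smaller difference than those of most P450 genes that fell, and with library totals it was not called at -0.14 (edgeR adjusted p = 0.534). Pgrmc1 and Cyb5a, which bind or assist P450s, were lower under both scalings: Pgrmc1 fell by 2.71 and Cyb5a fell by 2.26 with TMM (log2 scale). Among the 8 genes of heme synthesis, 4 were lower and 1, Cpox, was higher, but with library totals 5 were higher and none was lower. The 5 of 8 is near the 62.0% of all genes, and the direction depends on the scaling. Alas1, the rate-limiting first enzyme, was at -0.48 with TMM and 0.39 with library totals.

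Of 20 receptors and regulators of P450 genes, 19 were tested, 16 were lower and 3 were higher in tumor, with a median of -2.64. With library totals 11 were lower and 6 higher. Over all genes 35.4% were lower and 38.9% higher with TMM, and 17.6% and 62.0% with library totals. Nr1i2, the pregnane X receptor that induces Cyp3a genes, had 14, 12, 13.9 and 5.99 CPM in tumor, against 178, 167, 186 and 199 CPM in small intestine. Its groups did not overlap, and the log2 fold change was -3.99 ± 0.26 (SE; edgeR adjusted p = 1.09e-06). Nr1i3, the constitutive androstane receptor, Vdr, the vitamin D receptor, and Ppara, the fatty acid receptor, fell further, by 5.41, 4.99 and 4.91 on the log2 scale. Ahr, the receptor upstream of Cyp1 genes, was higher, with 33.8, 38.6, 33.1 and 44.3 CPM in tumor, against 13.6, 12, 10.5 and 10.4 CPM in small intestine (log2 fold change 1.69 ± 0.14, SE; edgeR adjusted p = 3.87e-06). Its repressor Ahrr and its target Tiparp were both lower, at log2 fold changes of -2.76 and -0.97 (Tiparp at -0.10 with library totals). The retinoic acid receptors Rarb, itself a retinoic acid target, and Rarg were higher, at 5.80 ± 0.31 and 2.27 ± 0.20 on the log2 scale (SE). Epoxide hydrolases open the epoxides that P450 enzymes form. Ephx2, the soluble form, fell by 5.29, while the low-level Ephx4 and Ephx3 were higher by 4.15 and 3.30 on the log2 scale, and Ephx1 was not called at 0.58.

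**Figure D5:**
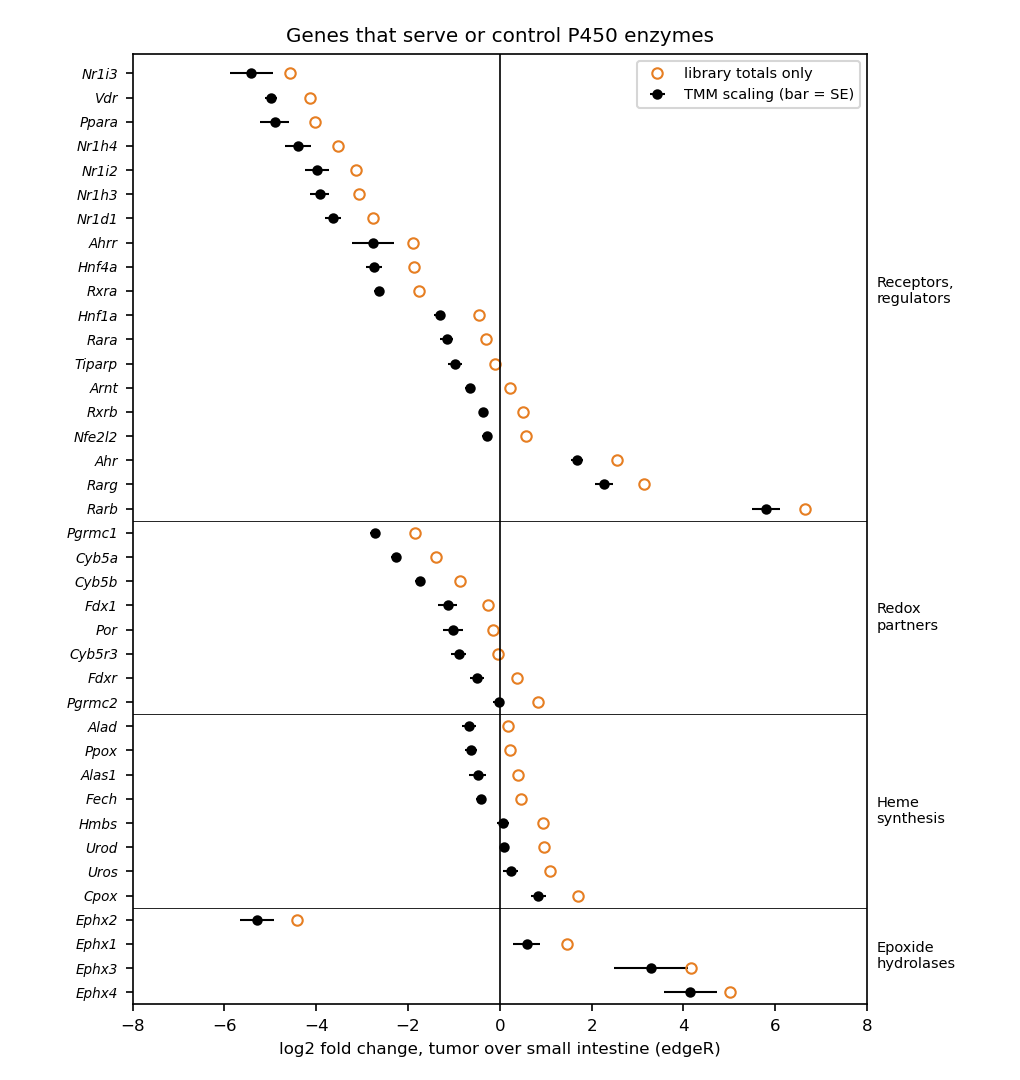
Log2 fold change, tumor over small intestine, of 39 tested genes that serve or control P450 enzymes, by list; black points with SE bars use TMM scaling and open orange points library totals. Receptors such as Nr1i3 and Vdr stay well left of 0 under both scalings, while most heme synthesis genes move from left of or near 0 to right of 0.

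Promoter sequence was set beside these calls for 76 of the 99 members, as the 250 bases before the start. These had an entry, matched by symbol, chromosome and strand, in the set of RefSeq promoters used here (GRCm38.p6). The other 23 had none in this set, which does not show that RefSeq lacks them. The sequences shown are examples with a motif match and do not stand for the called members as a whole. Cyp4f14 and Cyp2d26, both lower, and Cyp26a1, higher, had no match. Cyp3a11, a lower member, is at chr5:145879855-145880104, minus strand, and its RefSeq start lies 110 bases from the GENCODE start. Cyp2c65, also lower, is at chr19:39060756-39061005, plus strand. Cyp1b1, a higher member, is at chr17:79715062-79715311, minus strand. The sequences run 5′ to 3′ on the gene's strand, with motif matches in capitals.
Cyp3a11: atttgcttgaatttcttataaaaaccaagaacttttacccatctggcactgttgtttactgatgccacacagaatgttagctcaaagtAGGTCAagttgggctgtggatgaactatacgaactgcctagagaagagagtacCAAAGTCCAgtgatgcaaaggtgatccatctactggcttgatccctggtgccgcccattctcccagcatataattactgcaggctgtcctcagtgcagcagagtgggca
Cyp2c65: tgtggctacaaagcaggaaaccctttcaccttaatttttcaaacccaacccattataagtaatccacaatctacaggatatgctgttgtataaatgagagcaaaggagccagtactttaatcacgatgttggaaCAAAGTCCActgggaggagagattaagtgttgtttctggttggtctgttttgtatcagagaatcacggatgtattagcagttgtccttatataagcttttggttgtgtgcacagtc
Cyp1b1: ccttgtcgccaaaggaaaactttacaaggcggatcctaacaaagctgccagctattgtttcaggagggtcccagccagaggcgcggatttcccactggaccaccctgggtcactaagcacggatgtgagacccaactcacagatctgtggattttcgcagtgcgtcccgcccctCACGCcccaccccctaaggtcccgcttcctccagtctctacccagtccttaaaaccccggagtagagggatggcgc
The capitals mark the nuclear receptor half-site AGGTCA and the HNF4-type site CAAAGTCCA in Cyp3a11, CAAAGTCCA in Cyp2c65, and CACGC in Cyp1b1, which is the core GCGTG bound by the aryl hydrocarbon receptor read on the other strand. Both strands were searched. CAAAGTCCA was in 11 of the 76 member promoters, 3 of them among the 24 lower members with an entry and none among the 7 higher ones, against 0.379% of all 20592 promoters. The 11 are 6 Cyp2c genes, 4 Cyp3a genes and Cyp8b1, and neighbours within a cluster are related by descent, so they are not independent. AGGTCA was in 16 of 76, 4 of the 24 lower and 1 of the 7 higher members, against 12.9% of all promoters. GCGTG was in 13 of 76, 5 of the 24 lower and 3 of the 7 higher members, Cyp1b1, Cyp20a1 and Cyp2w1, against 31.9% of all promoters. The Wnt-type site ATCAAAG was in 2 of 76, none of them lower or higher members, and in 2.97% of all promoters. At that share, 24 and 7 promoters are too few to show a lack of the site. A match describes letters in this window and does not show that a factor binds there.

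Most members sit in clusters of related genes, and calls could be read along them. The share over all genes tested was 35.4% lower and 38.9% higher. Of 8 genes in the main Cyp3a cluster on chromosome 5, 4 were tested and 4 were lower. In the Cyp2c cluster on chromosome 19, 4 of 14 were tested, and these 4 were lower. The Cyp2d cluster on chromosome 15 had 5 lower among 6 tested of 8. In the Cyp4f cluster on chromosome 17, 7 of 8 were tested, and 5 were lower, 1 was higher and 1 was not called. The mixed Cyp2 cluster on chromosome 7 held 13 members, of which 5 had no count and 3 were tested, with Cyp2s1 and Cyp2b10 lower. The 52 members that were not tested were low wherever they were counted, at a mean of at most 1.02 CPM in either tissue. Among the 36 of them with any count, the mean was higher in tumor for 11 and higher in small intestine for 25, and 23 stayed under 0.1 CPM in both tissues.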

How the data were processed

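The authors deposited whole-number read counts per gene and FPKM values for the same 8 libraries. The submitters' processing notes name FastQC, STAR, Cufflinks 2.2.1 and HTSeq 0.6.0 and the build GRCm38, without settings, so the treatment of shared reads and of strand is not given in the sources used here. RNA was polyadenylated, per the labels. Gene symbols were matched for 42462 of 43629 gene IDs, and gene positions are from GENCODE on GRCm38. The deposited counts were tested with edgeR 4.0.16 (R 4.3.3) using TMM scaling, its low-count filter and the quasi-likelihood test with tissue as the only term, with Benjamini-Hochberg adjustment over 17029 genes and calls at 0.05. SE came from the F statistic. The fit was tested on simulated data. Levels between genes were compared in FPKM as the authors deposited them. Alternatives were DESeq2 size factors, library totals, no low-count filter, DESeq2 1.42.0, the replicate number as a block, leaving out each library, and limma 3.58.1 on log2(FPKM + 1) with a minimum mean of 1 FPKM, with a pseudocount of 0.1 or without that minimum. A minimum mean of 1 CPM was added after seeing the data.

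The members, roles and gene lists were chosen with earlier results of these data known, and the mast cell list after these values were seen. Named were all called members with a mean of at least 5 CPM, all members higher in tumor, the leading members of small roles and a set of well-known genes. Cyp2e1, Cyp3a59, Cyp2c66, Cyp3a57, Cyp2d34, Cyp4a10, Cyp4f18, Cyp4f39, Cyp17a1, Ahrr and Tiparp were added for their values. Floors are 3 counts, and intervals of count ratios are exact at 95%.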

Additional observations from a re-analysis of the deposited data

Results flagged for a closer look

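In 7 of 62 groups of 4 libraries examined, 1 library stood apart from the other 3, by a gap that exceeds Dixon's 95% critical share of the range; chance flags about 1 group in 20. In tumor 4, Cyp4f17 was at 3.16 CPM, and the remaining tumor libraries lay between 2.29 and 2.41 CPM. Cyp2w1 was also highest in tumor 4, at 5.70 CPM, against 0.894 to 1.25 CPM in the others. Cyp26b1 was lowest in tumor 4, at 2.01 CPM, against 2.46 to 2.50 CPM. Cyp3a11 in tumor 2 was at 0.334 CPM, against 0.0221 to 0.0279 CPM, a level near that of 3 counts per library. Cyp4f13 in tumor 1 was at 10.9 CPM, against 11.3 to 11.4 CPM, a small gap in a very tight group. In small intestine 4, Cyp4f14 was at 2758 CPM, against 2224 to 2267 CPM in the others, and Cyp4f16 was at 419 CPM, against 223 to 256 CPM.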

How the results depend on the processing

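The counts of 11 higher and 29 lower members held within 1.5 times with DESeq2 size factors, library totals, no low-count filter, the DESeq2 test, the replicate block and log2(FPKM + 1) without a minimum. Higher members numbered 7 with a mean of at least 1 CPM and 3 on FPKM with either pseudocount, where fewer members are tested (33 and 25 in place of 47). The median log2 fold change of -3.20 was -2.34 with library totals, -2.55 over 83 members without the low-count filter (-3.09 over the same 47), -4.26 with a mean of at least 1 CPM, -4.29 on FPKM with a pseudocount of 0.1 and -0.033 on FPKM without a minimum, where 82 members are tested (-0.41 over the same 47). Leaving out 1 library gave medians from -3.40 to -3.02, 11 to 13 higher and 29 to 33 lower members. Of 39 redox, heme, receptor and hydrolase genes, 6 were higher and 28 lower; library totals gave 15 and 15, FPKM 15 and 14 with either pseudocount, FPKM without a minimum 16 and 15, and leaving out 1 library 6 higher and 25 to 27 lower. Cyp2r1, not called at -0.46, turned to 0.40 with library totals and 0.16 on FPKM without a minimum; the cause was not tested. Over the named members, 491 alternative values kept direction and call, 11 lost the call and 3 gained it. The labels do not say whether libraries of the same number come from the same animal. Correlations of same-numbered libraries were between -0.159 and 0.014, which with so few libraries cannot show whether the numbers pair the samples. With the number as a block 10 members were higher and 29 lower, Cyp2w1 losing its call (edgeR adjusted p = 0.0992). At this depth the 52 members not tested were too low for the filter, and the missing call does not mean that they did not differ. Without the filter 55 members were called, in place of 40.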

Other observations

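Some P450 genes carry names outside the rule. Cyp51, the sterol demethylase of cholesterol synthesis, had 153, 171, 184 and 165 CPM in tumor, against 191, 375, 183 and 388 CPM in small intestine, and was called lower at a log2 fold change of -0.76 ± 0.25 (SE; edgeR adjusted p = 0.0222), but not with library totals, where it was 0.13 (edgeR adjusted p = 0.607). Tbxas1, thromboxane synthase, had 3.45, 2.4, 2.79 and 3.12 CPM in tumor, against 1.48, 1.5, 1.15 and 0.638 CPM in small intestine, and was called higher at 1.30 ± 0.30 (log2 fold change, SE; edgeR adjusted p = 0.00336). Ptgis, prostacyclin synthase, was not called (log2 fold change 1.41 ± 0.62, SE; edgeR adjusted p = 0.0651). Of the 15 P450 pseudogenes left out, none averaged above 1 CPM in either tissue.

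Of 8 liver markers, 4 were tested, 2 were higher in tumor (Alb and Ahsg), 1 was lower (Serpina1b, at a log2 fold change of -4.11) and Ttr was not called. Ahsg, a liver plasma protein, was below 1 CPM in every library. Alb, serum albumin, had 141, 141, 138 and 52.4 CPM in tumor, against 0.0174, 0, 0 and 0 CPM in small intestine, while Fgb, the fibrinogen beta chain, was at most 0.0124 CPM in tumor, against 0.021 CPM in small intestine, and Cyp7a1, the P450 gene of bile acid synthesis in liver, had no count. The part of liver RNA in the P450 values was not tested. Near Cyp21a1, a list of 4 neighbours was chosen after its values were seen. All 4 were tested, 1 was called higher and 1 lower, and their median log2 fold change was 0.50. C4b of this list, a complement gene, was not called (log2 fold change 1.31 ± 0.58, SE; edgeR adjusted p = 0.0644). It had 37.2, 26.6, 29.3 and 54.9 CPM in tumor, against 27, 21.9, 7.68 and 3.07 CPM in small intestine.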
